A study of Mus musculus with 30 samples.

Results

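Histones are the proteins around which DNA is wound, and the genes that encode them were examined in mouse microglia with and without the microRNA gene Mir137. The set was taken by symbol from the RefSeq protein-coding genes of the mm10 assembly: every H1, H2A, H2B, H3 or H4 gene whose symbol begins as histone symbols of the current or the older nomenclature do, variants and testis forms included. The rule misses H4bc24, beside H2ac24, and Cenpa, the centromeric H3 variant, both counted here among the other genes. It holds 104 of 21887 protein-coding genes. By histone, 10 encode H1, 46 H2A, 19 H2B, 16 H3 and 13 H4. By place, 53 lie in the large cluster on chromosome 13, 10 in the cluster on chromosome 3 and 3 in the cluster on chromosome 11. Another 16 lie elsewhere on autosomes, and 22, mostly H2A forms known from testis, lie on the sex chromosomes.

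Both genotypes were C57BL/6J mice that carried the tamoxifen-inducible Cre allele Tmem119-CreERT2, in which a microglial gene drives the recombinase, and tamoxifen was injected for 7 days in a row at 7 to 8 weeks of age. Cells were sorted from brain at a labelled age of 8 weeks. The knockout (cKO) was Mir137loxP/loxP;Tmem119-CreERT2 and the control (cWT) Mir137+/+;Tmem119-CreERT2, so Cre and tamoxifen were shared by both and only the floxed allele differed. CUT&Tag, which cuts out DNA next to an antibody-bound protein, was run on about 100000 cells per genotype with antibodies to 5 targets. These were acetylated lysine 27 of histone H3 (H3K27ac), trimethylated lysine 4 of histone H3 (H3K4me3), RNA polymerase II (Pol II), its form phosphorylated on serine 5 (Pol II Ser5P) and the myeloid transcription factor Pu.1. Each of the 10 groups had 3 replicates, while 4 mice are mentioned for the series, and whether a replicate was a separate animal or a pool is not stated. The protocol prints only 2 catalogue numbers for the 5 targets, 1 shared by H3K27ac and both polymerase antibodies and 1 by H3K4me3 and Pu.1. Targets are named here as the labels name them, and whether the numbers are misprints was not tested.

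The values analysed are the authors' 10 lists of regions specific to a genotype, 1 for every pairing of antibody and genotype. They hold 22399 regions. A "cKO region" below is a line of a cKO list and a "cWT region" a line of a cWT list. The lists give no value for single replicates and no read depth, so no difference between genotypes could be tested, and every count is a description of the lists. Each region carries a deposited p-value whose null hypothesis the sources used here do not state. In all 22399 regions the deposited score equals 125 times the negative log2 of this p, rounded down and at most 1000, so score and p are 1 value. That scaling is the one the IDR software uses for the irreproducible discovery rate between replicates. Whether the column is such a rate, and so measures agreement of replicates and not a difference between genotypes, is not stated. At histone genes it ran from 0.0508 to 0.957 and the smallest deposited adjusted p was 0.586. None of the histone gene regions had a deposited p under 0.05, against 169 regions in all lists together. Because lists hold differences and not levels, they cannot show how strongly a marker gene is used. Of all protein-coding genes 40.2% had a region of some list within 2 kb of the gene span. Of 10 microglial markers 9 had one, and of 6 markers of border macrophages and monocytes 1 (Mrc1). Of 6 neuronal markers 0 had one, of 5 astrocyte markers 1 (Slc1a2) and of 5 oligodendrocyte markers 1 (Mbp). Of 4 endothelial markers 3 had one (Kdr, Flt1 and Pecam1). The counts are small and are not read as a measure of purity.

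Most histone genes are replication-dependent. They are short, lack introns, are transcribed mainly in S phase when new DNA must be packaged, and give messages that end in a stem-loop and not in a poly(A) tail. Variant genes outside the clusters, such as H2az1, H3f3b and H1f0, are expressed throughout the cell cycle or in resting cells and supply histones that replace the canonical ones. Microglia of the healthy adult brain divide rarely. H2A and H2B genes often sit head to head and share the DNA between their starts as a common promoter.

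The DNA just before the starts of selected H1, H4, H2A and H2B genes is shown first. Polymerase, H3K4me3 or H3K27ac regions described for them below lie over or close to it. Not all do: the H3K4me3 regions of H1f2 and H1f3 lie at the gene's end, and the one near H2ac11 lies in H4c9. The choice was made after their regions were seen. Sequences are from RefSeq, assembly GRCm38.p6, read in the direction of the gene and ending at the base before its start. In the H1 promoters capitals mark CCAAT or its reverse complement, TATAAA or its reverse complement, and AAACACA, the core of an element known from H1 promoters. The H1f2 stretch is chr13:23738657-23738806 on the plus strand, the H1f3 stretch chr13:23554882-23555031 on the plus strand and the H1f4 stretch chr13:23622559-23622708 on the minus strand.
H1f2: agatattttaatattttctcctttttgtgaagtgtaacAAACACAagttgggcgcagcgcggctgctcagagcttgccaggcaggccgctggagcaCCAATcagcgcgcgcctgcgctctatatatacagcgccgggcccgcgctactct
H1f3: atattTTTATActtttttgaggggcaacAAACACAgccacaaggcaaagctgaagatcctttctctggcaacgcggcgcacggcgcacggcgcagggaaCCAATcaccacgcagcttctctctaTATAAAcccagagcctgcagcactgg
H1f4: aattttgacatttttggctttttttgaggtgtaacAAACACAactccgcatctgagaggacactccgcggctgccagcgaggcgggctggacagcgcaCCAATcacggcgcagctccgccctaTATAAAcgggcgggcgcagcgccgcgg
All 3 hold AAACACA upstream of a single CCAAT, and H1f3 and H1f4 also have TATAAA nearer the start.

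For the H4 genes capitals mark the same CCAAT and TATAAA boxes and GGTCCG, the core of an element known from H4 promoters. H4c3 is chr13:23698459-23698608 on the minus strand, H4c4 is chr13:23581418-23581567 on the plus strand and H4f16, an H4 gene on chromosome 6 outside the clusters, is chr6:136804432-136804581 on the minus strand.
H4c3: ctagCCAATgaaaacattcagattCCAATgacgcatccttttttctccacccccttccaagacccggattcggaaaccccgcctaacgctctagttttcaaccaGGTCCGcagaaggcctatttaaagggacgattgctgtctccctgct
H4c4: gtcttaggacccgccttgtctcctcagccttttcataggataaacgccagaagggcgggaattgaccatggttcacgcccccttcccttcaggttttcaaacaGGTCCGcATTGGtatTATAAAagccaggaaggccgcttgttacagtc
H4f16: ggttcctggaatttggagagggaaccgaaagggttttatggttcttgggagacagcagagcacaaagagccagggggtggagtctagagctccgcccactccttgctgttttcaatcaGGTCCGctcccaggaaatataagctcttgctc
GGTCCG stands in each of the 3. It is closer to the start than the CCAAT boxes of H4c3, while in H4c4 the CCAAT box is the closer. The H4f16 stretch has no CCAAT box.

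Head-to-head H2A and H2B genes are shown by the whole stretch between their starts, on the plus strand, so that the H2A gene runs away to the left and the H2B gene to the right. Capitals mark CCAAT (either strand) and the octamer ATTTGCAT, an Oct-factor motif known from H2B promoters. The H2ac12 and H2bc12 stretch is chr13:22035644-22035820 and the H2ac11 and H2bc11 stretch chr13:22042950-22043197.
H2ac12 and H2bc12: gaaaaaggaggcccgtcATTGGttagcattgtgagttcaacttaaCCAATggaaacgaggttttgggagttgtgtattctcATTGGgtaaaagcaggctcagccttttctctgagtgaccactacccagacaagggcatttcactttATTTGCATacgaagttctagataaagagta
H2ac11 and H2bc11: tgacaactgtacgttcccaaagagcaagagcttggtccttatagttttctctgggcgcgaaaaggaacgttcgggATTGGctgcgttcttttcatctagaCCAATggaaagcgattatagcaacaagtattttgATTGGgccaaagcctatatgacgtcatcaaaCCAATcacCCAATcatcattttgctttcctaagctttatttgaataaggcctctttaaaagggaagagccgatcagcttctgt
The first pair has 3 CCAAT boxes and the octamer, and the second has 5 CCAAT boxes.

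Motifs were counted in promoter windows from 250 bases before to 50 after each start, on both strands and with overlaps between motifs allowed; 99 windows of 98 histone genes and 21263 windows of all genes were available. TATAAA was in 39.4% of histone gene windows and 12.6% of all windows, and in 60.8% of those of the chromosome 13 cluster. CCAAT was in 67.7% against 38.2%. Every window of a clustered H1, H2A, H2B or H3 gene held CCAAT, but only 27.3% of the clustered H4 windows did. The octamer ATTTGCAT was in 15.2% of histone gene windows and 1.66% of all windows. Among clustered genes it was in 38.9% of H2A and 43.8% of H2B windows and in 0% of H1, H3 and H4 windows. AAACACA was in 5 of 6 clustered H1 windows (83.3%), 10.1% of all histone gene windows and 6.15% of windows over all genes. GGTCCG was in 10 of 11 clustered H4 windows (90.9%), 17.2% of all histone gene windows and 10.5% of windows over all genes. AAACACA and GGTCCG were added to the search after promoter sequences had been seen. GAGGAAGT, a Pu.1 core, was in 0% of histone gene windows and 3.13% of all windows, and TGANTCA, the AP-1 site, in 4.04% against 6.99%. H1 and H4 windows thus differed in these letters from H2A and H2B windows, which were alike and often share 1 promoter. The counts describe the windows and not the binding of any factor.

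A region was counted for a histone gene where it overlapped the gene's span extended by 2 kb on each side. By that measure 55 of the 104 genes (52.9%) had a region in at least 1 list, against 8794 of all protein-coding genes (40.2%). They were reached by 63 distinct regions, 0.281% of all regions. Of these, 57 overlapped the span of a histone gene itself and the other 6 lay beside one. Because neighbours are close, 30 of the 63 regions counted for more than 1 histone gene, at most 3, and 8 reached another protein-coding gene too. No gene of the sex chromosomes had a region, so all 55 were among the 82 autosomal genes and 27 autosomal genes had none. In libraries made from many cells, a change in the share of cells that carry a mark and a change within each cell cannot be told apart.

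Histone genes are short, with a median length of 501.5 bp against 17169 bp over all protein-coding genes, so they offer little room for a region to fall in. The extended spans of the 104 genes cover 0.562 Mb and held 112 regions per Mb, against 16.1 per Mb in the extended spans of all genes, 1100 Mb. Of the 85 histone genes up to 1 kb long 46 had a region (54.1%), and of the 1492 other protein-coding genes of that length 34 did (2.28%). Whether those other short genes are active in microglia was not measured here. At the median length, the 2 kb added on each side make up most of a histone gene's window but the lesser part of another gene's. Densities per Mb at histone genes and over all genes, here and below, therefore compare unlike windows. The part of gene length in them was not tested. Density and length were thus measured beside the share of genes, and the 3 measures place histone genes differently against the background.

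**Figure D1:**
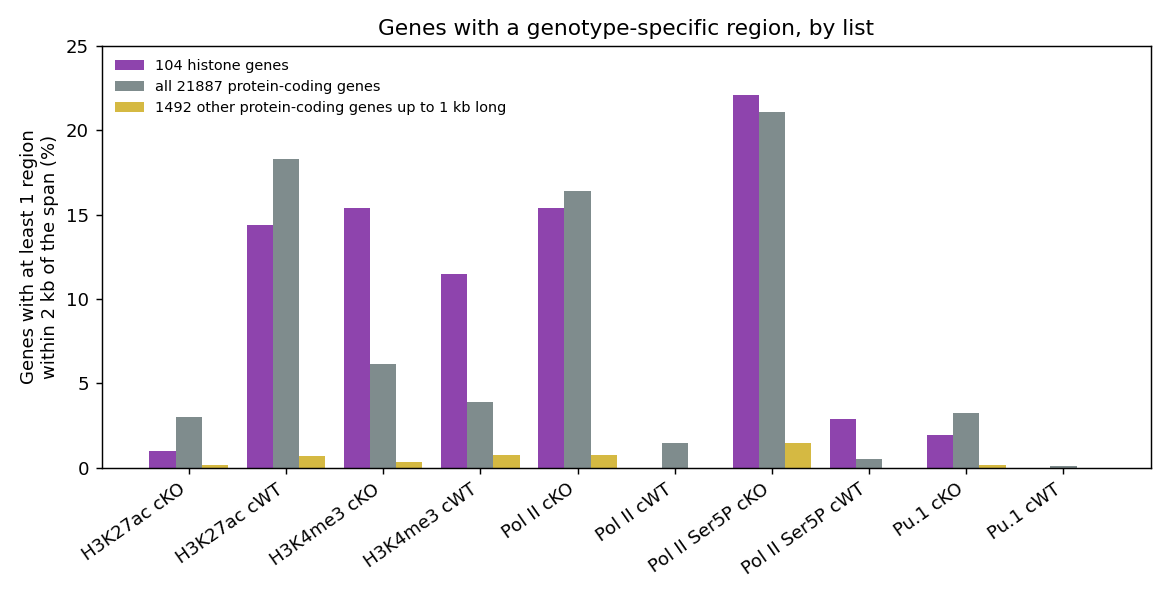
Percentage of genes with at least 1 region within 2 kb of the span (vertical axis) for each of the 10 lists (horizontal axis), for the 104 histone genes, all 21887 protein-coding genes and the 1492 other protein-coding genes up to 1 kb long. The bars of histone genes stand above those of all genes for H3K4me3 in both genotypes (15.4% and 11.5%) and near them for Pol II Ser5P in cKO (22.1%).

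The polymerase regions at histone genes were almost all cKO regions. For Pol II, 16 histone genes (15.4%) had a cKO region, with 16.4% of all genes called by the same rule, and 0 had a cWT region, with 1.45% of all genes. For Pol II Ser5P, 23 histone genes (22.1%) had a cKO region against 21.1% of all genes, and 3 (2.88%) a cWT region against 0.521%. The cKO shares thus lay near the background, and the direction was that of the lists as a whole. Of the member regions 100% were cKO for Pol II and 94.7% for Pol II Ser5P, where the complete lists were 92.2% and 98% cKO. Per Mb, Pol II cKO regions numbered 23.1 at histone genes and 3.41 over all genes, and Pol II Ser5P cKO regions 32 and 4.58.

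In all, 30 histone genes (28.8%) had a cKO region of at least 1 of the polymerase antibodies, against 26.8% of all genes, and 9 (8.65%) of both, against 10.7%. Of the 30, 27 (26% of histone genes, against 25.3% of all genes) had no cWT polymerase region. These shares lay near the background. The exceptions were H2bc13, H2ac13 and H3c10, whose windows hold 1 Pol II Ser5P region of each genotype. There the cKO region, chr13:21716809-21717005, is separated by 7 bp from the cWT region, chr13:21716366-21716801. The 2 genotypes' calls at this site were therefore neighbours and not the same stretch. Among Pol II cKO regions at histone genes, 7 of 13 (53.8%) overlapped a Pol II Ser5P cKO region, and 8 of 18 (44.4%) the other way round. Over the whole lists these shares were 51.2% and 38.8%, so the overlap at histone genes was near that of the lists.

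H3K4me3 was the mark for which the share of histone genes stood furthest above the background among lists with more than 3 histone genes, when every gene near a region is counted. Counting each region for its nearest gene alone lowers the H3K4me3 counts below from 16 to 10 (cKO) and from 12 to 7 (cWT), and over promoters the excess for cWT is small (3.06% against 2.16%). H3K4me3 cKO regions lay at 16 histone genes (15.4%) against 6.16% of all genes, and cWT regions at 12 (11.5%) against 3.89%. No histone gene had H3K4me3 regions of both genotypes, against 0.599% of all genes (131). Among all genes with a cWT H3K4me3 region 15.4% also had a cKO one, so 0 of 12 is a small count from which nothing particular to histone genes is read. Of the H3K4me3 regions at histone genes 58.8% were cKO, against 61.5% of the 2 lists together. Per Mb there were 17.8 cKO regions at histone genes against 1.06 over all genes, and 12.4 cWT regions against 0.68. These densities compare windows of unlike make-up. Over promoter windows of equal length the cKO share was 8.16% against 3.49%. The split between genotypes was thus near that of the lists.

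H3K27ac regions at histone genes were mainly cWT regions. They lay at 15 genes (14.4%) for cWT, against 18.3% of all genes, and at 1 gene (0.962%) for cKO, against 2.99%. By regions, 7.69% of those at histone genes were cKO against 10.8% of the lists. Per Mb the cWT regions numbered 21.3 at histone genes and 4.84 over all genes. Of the 15 genes with a cWT H3K27ac region, 4 also had a cKO polymerase region (3.85% of histone genes, against 9.9% of all genes) and 11 had no polymerase region of either genotype. Among genes with a cWT H3K27ac region, 26.7% of the histone genes and 54% of all genes had a cKO polymerase region. No polymerase region was listed at 73.3% and 45.2% of them. The lengths of these genes were not compared, and the part of gene length in this was not tested. Counted by overlap of the regions themselves, 2 of 12 cWT H3K27ac regions at histone genes (16.7%) overlapped a Pol II Ser5P cKO region, against 10.3% of the list, and 1 of 12 (8.33%) a Pol II cKO region, against 9.96%. The 2 ways of counting thus placed histone genes on different sides of the background. H3K27ac and both polymerase antibodies carry the same printed catalogue number, which bears on every contrast between them below.

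Pu.1, which binds myeloid enhancers and promoters, had few listed regions at histone genes, in a share near that of all genes. A single cKO region lay near 2 genes, H3c15 and H2ac19 (1.92%, against 3.24% of all genes), and 0 cWT regions lay near any (0.0959% of all genes). That region, chr3:96239359-96239607, overlaps neither gene's span, and its deposited p of 0.750 is at percentile 49.2 of its list.

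Counted over the promoter window alone, the picture by antibody was similar in direction. For H3K27ac 0 histone genes had a cKO region (0.749% of all genes with a window) and 11 a cWT region (11.2%, against 6.41%). For H3K4me3 8 had a cKO region (8.16%, against 3.49%) and 3 a cWT region (3.06%, against 2.16%). For Pol II 10 had a cKO region (10.2%, against 9.51%) and 0 a cWT region (0.583%). For Pol II Ser5P 14 had a cKO region (14.3%, against 13.1%) and 2, H2ac13 and H2bc13, a cWT region (2.04%, against 0.263%). For Pu.1 1 gene, H3c15, had a cKO region (1.02%, against 1.14%) and 0 a cWT region (0.0229%). With promoters of equal length, the shares for polymerase in cKO again lay close to the background, and that for cWT H3K27ac, which lay under it by the whole gene, lay above it.

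**Figure D2:**
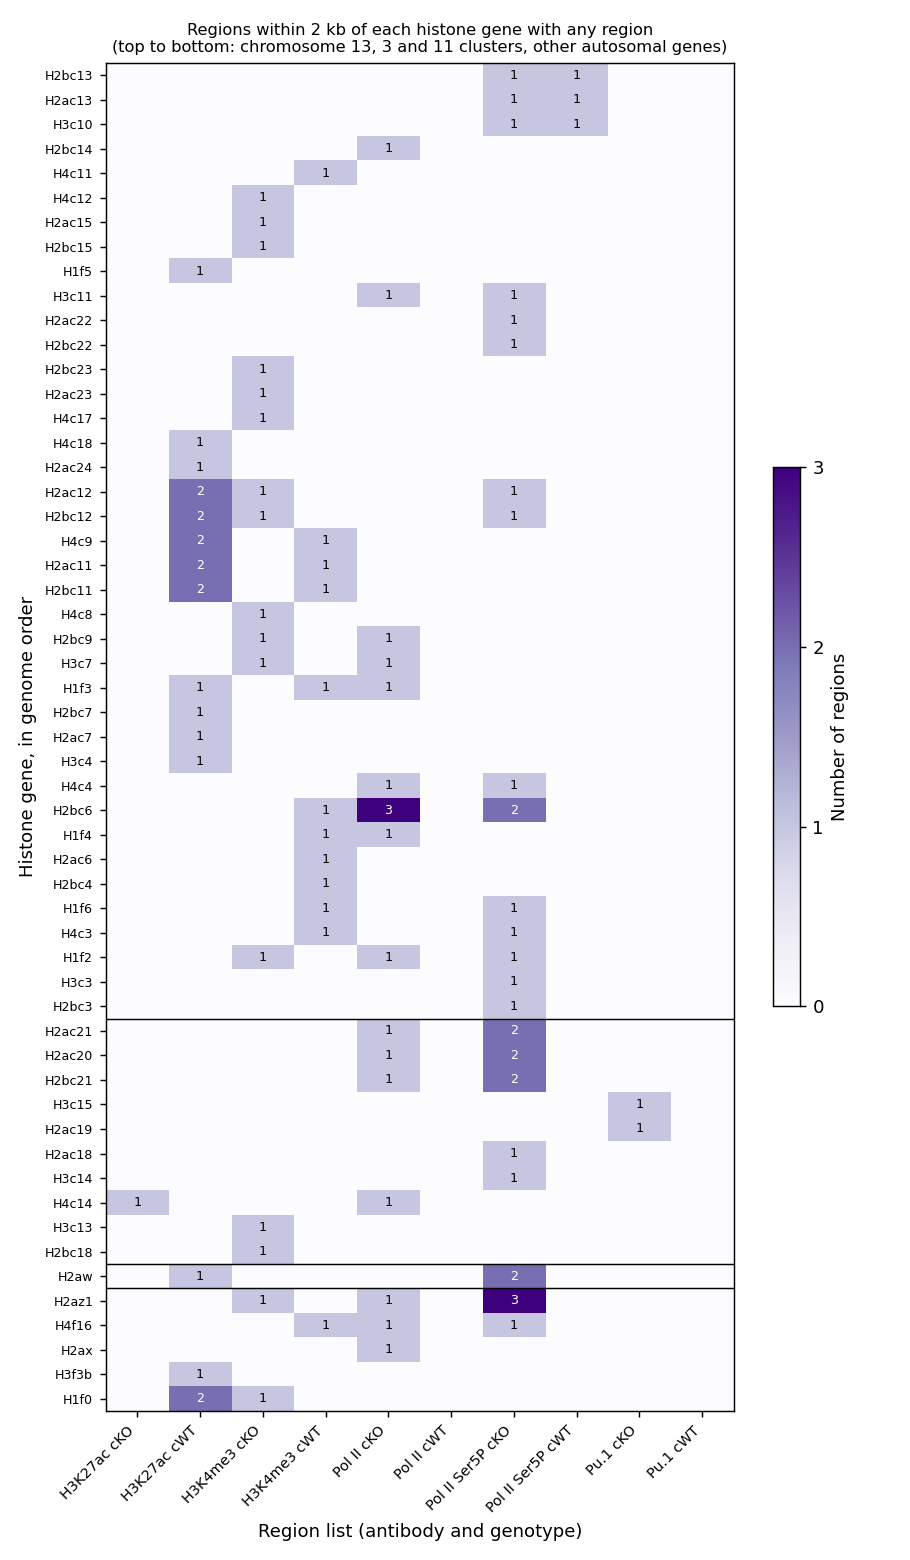
Number of regions (colour and digits) within 2 kb of each of the 55 histone genes that have any, in genome order from top to bottom, for the 10 lists from left to right; lines separate the chromosome 13 cluster, the chromosome 3 cluster, the chromosome 11 cluster and other autosomal genes. Most entries are single regions, the columns for Pol II and Pu.1 in cWT are empty, and no gene has entries in both H3K4me3 columns.

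The linker histone genes come first, because several of their regions had small deposited p-values within their lists. H1f2, H1f3 and H1f4 encode somatic H1 proteins, which sit on the DNA between nucleosomes and compact it. H1f2 (chr13:23738807-23739531, plus strand, 725 bp) had cKO regions in 3 lists and no cWT region. Its Pol II Ser5P cKO region, chr13:23738777-23740275, is 1499 bp long, the longest region at any histone gene, and covers the whole gene, with a deposited p of 0.0510 (percentile 1.32 of its list). The Pol II cKO region, chr13:23738775-23739120, covers the start (deposited p 0.274), and the H3K4me3 cKO region, chr13:23739514-23740086, lies at the gene's end (deposited p 0.512, percentile 8.75). For H1f2, then, every listed difference pointed to the knockout. That is the main direction of these lists, which are 92.2% cKO for Pol II, 98% for Pol II Ser5P and 61.5% for H3K4me3.

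H1f3 (chr13:23555032-23555807, plus strand) had regions of both genotypes. Its Pol II cKO region, chr13:23555032-23555475, begins at the first base of the gene (deposited p 0.417). Its H3K27ac cWT region, chr13:23555020-23556114, covers 100% of the gene with a deposited p of 0.254 (percentile 3.48), and its H3K4me3 cWT region, chr13:23555689-23555938, lies at the end. Polymerase was thus listed for cKO and both histone marks for cWT over the same gene. H1f4 (chr13:23621777-23622558, minus strand) showed the same split of polymerase and H3K4me3. Its Pol II cKO region, chr13:23622137-23622539, was named primary, had a signal of 30.9 and a deposited p of 0.0695, and ranked 33 of 4647 by that p. Its H3K4me3 cWT region, chr13:23622094-23622556, contains the whole of that Pol II region, 403 bp.

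Within the cluster the other H1 genes had fewer regions of their own. H1f5 had a single H3K27ac cWT region, chr13:21779141-21779437, beyond the end of the gene, with a deposited p of 0.949. H1f6, a testis H1, was reached only by regions centred on its neighbour H4c3. Outside the clusters H1f0, the H1 form known from resting and differentiated cells, had H3K27ac cWT regions at chr15:79028067-79028353 and chr15:79028485-79028738, and an H3K4me3 cKO region, chr15:79028399-79028733, that shares 249 bp with the second. The marks at the start of H1f0 were thus listed for opposite genotypes, the main direction of their lists (10.8% cKO for H3K27ac and 61.5% for H3K4me3). Among the 6 clustered H1 genes 5 had a region, where 40.2% of all genes did, and H1f1 was the one without.

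H4 genes encode the histone with the fewest sequence variants, and 10 of 13 had a region, where 40.2% of all genes did. H4f16 (chr6:136803993-136804431, minus strand) had 3 nested regions. The Pol II Ser5P cKO region, chr6:136803806-136804442, covers the whole gene (deposited p 0.455), the Pol II cKO region, chr6:136803885-136804420, covers 97.5% of it (deposited p 0.582), and the H3K4me3 cWT region, chr6:136803972-136804354, lies inside both (deposited p 0.893). As at H1f3 and H1f4, polymerase was listed for cKO and H3K4me3 for cWT. H4c3 (chr13:23698084-23698458, minus strand) had the same split. Its Pol II Ser5P cKO region, chr13:23697948-23698488, was named primary (deposited p 0.129, percentile 4.16) and contains its H3K4me3 cWT region, chr13:23698165-23698393. Among all histone genes 6 had cKO polymerase with cWT H3K4me3 regions, and 6 had cKO polymerase with cKO H3K4me3 regions. Neighbours share some of these regions, and the shares over all genes were not computed. How frequent the split is at histone genes is therefore not read from these counts. The lists are 92.2% cKO for Pol II and 98% for Pol II Ser5P.

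H4c4 (chr13:23581568-23581969, plus strand) had both polymerase cKO regions and no mark. These were Pol II at chr13:23581573-23581971 (deposited p 0.944) and Pol II Ser5P at chr13:23581611-23581961 (deposited p 0.755), both in the weaker part of their lists. H4c14, on chromosome 3, had a Pol II cKO region, chr3:96263035-96263342, over the gene and the only H3K27ac cKO region at any histone gene, chr3:96263762-96264199, beside it (deposited p 0.733). H4c11 had an H3K4me3 cWT region, chr13:21734729-21735402, over its start, whereas H4c12 had an H3K4me3 cKO region, chr13:21750218-21750546. These near neighbours were chosen after their values were seen, and they show the mark listed for opposite genotypes at genes of 1 cluster. H4c9 had regions in 2 lists, of which the 2 H3K27ac cWT regions lie over its neighbours H2ac11 and H2bc11.

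H2A and H2B form the dimers that flank the H3 and H4 core. A region lay at 16 of 46 H2A genes and 14 of 19 H2B genes, where 40.2% of all genes had one. Within the clusters the counts were 14 of 18 and 14 of 17, and shared windows raise them. H2ac12 and H2bc12, whose shared promoter is printed above, had 4 regions in 3 lists. Their H3K27ac cWT regions lay within H2ac12, at chr13:22035192-22035507 (deposited p 0.903), and from the shared promoter into H2bc12, at chr13:22035773-22036111 (deposited p 0.784). An H3K4me3 cKO region, chr13:22035334-22035710, overlaps the first by 174 bp, and a Pol II Ser5P cKO region, chr13:22035787-22036177, overlaps the second by 325 bp. At this pair acetylation was therefore listed for cWT, and H3K4me3 and Pol II Ser5P for cKO. That is the main direction of each list, 10.8% cKO for H3K27ac, 61.5% for H3K4me3 and 98% for Pol II Ser5P.

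The pair H2ac11 and H2bc11 had the H3K27ac cWT region with the smallest deposited p at a histone gene. It lies at chr13:22042641-22043063, was named primary, and had a deposited p of 0.132 (percentile 1.14, rank 80 of 6995). A second region, chr13:22043064-22043462, starts at the next base and carries the same deposited signal, 15.6. Such abutting pairs occurred 563 times over all lists. An H3K4me3 cWT region near them, chr13:22040935-22041209, lies in H4c9. Both marks were listed for cWT here and no polymerase region was listed.

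Of 9 head-to-head H2A and H2B pairs, with 164 to 281 bp between their starts, 7 had a region that overlapped the gap at least in part. Within 2 kb of either gene the count was also 7, where 40.2% of all single genes had a region. No share was computed for other head-to-head pairs, so nothing particular to shared promoters is read. H2ac12 and H2bc12 had regions over the gap in 3 lists. H2ac22 and H2bc22 had a Pol II Ser5P cKO region, chr13:21786920-21787381, named primary, with the smallest deposited p of any histone gene region (0.0508, percentile 1.31). H2bc7 and H2ac7 had an H3K27ac cWT region, chr13:23573935-23574751, which reaches H3c4 as well. H2ac15 and H2bc15 had an H3K4me3 cKO region, chr13:21753553-21754076, and so did H2bc23 and H2ac23, chr13:21809899-21810260. The only Pol II Ser5P cWT region at a histone gene reached into part of the gap of H2bc13 and H2ac13. No region lay at H2ac8 and H2bc8 or at H2bc1 and H2ac1, a pair known from testis. At a shared promoter a region cannot be given to 1 of the 2 genes. H2ac22, H2bc22, H2bc7, H2ac7, H2bc15, H2bc23 and H2ac23 are named for their pairing, and H3c4, H3c14 and H3c15 because they share a region with a named gene.

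The counts of some H2A and H2B genes come from their place or their annotation. H2bc6 had the most regions, 6 in 3 lists, but its annotated span is 37455 bp long. With 2 kb added on each side, it reaches regions of its neighbours. Of the 6, 2 overlap H1f4 and 2 overlap H4c4, which leaves a Pol II cKO region at chr13:23585691-23585939 and a Pol II Ser5P cKO region at chr13:23585569-23585939. H2ac20, H2ac21 and H2bc21 on chromosome 3 shared the same 3 cKO regions. Those were Pol II at chr3:96219750-96220090 and Pol II Ser5P at chr3:96219728-96220076, both over the start of H2ac21, and Pol II Ser5P at chr3:96220602-96221075 over the start of H2ac20. H2ac18 shared a Pol II Ser5P cKO region, chr3:96245639-96245974, with H3c14. In both of these chromosome 3 groups polymerase alone was listed, always for cKO, the direction of the polymerase lists as a whole. The regions counted for H2bc6 include the H3K4me3 cWT region that lies in H1f4.

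H2aw was the only 1 of 3 genes of the chromosome 11 cluster with a region. Its H3K27ac cWT region, chr11:58954726-58955347, covers 91.9% of the gene (deposited p 0.719). Its Pol II Ser5P cKO regions, chr11:58954752-58955088 and chr11:58955089-58955353, abut with the same deposited signal, 12.2, and overlap that acetylated stretch by 337 and 259 bp. Acetylation and Pol II Ser5P were listed for opposite genotypes here, the direction of their lists as a whole (10.8% and 98% cKO). H2bc9 and H3c7 shared a Pol II cKO region, chr13:23543114-23543500, and an H3K4me3 cKO region, chr13:23544356-23544814.

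Among the variants, H2az1, the H2A.Z gene whose product marks the nucleosomes around active starts, had 5 regions in 3 lists, all cKO. Its H3K4me3 region, chr3:137864378-137864799, and 1 Pol II Ser5P region, chr3:137864175-137864743, lie at the start and share 366 bp. The others, Pol II at chr3:137867434-137868186 and Pol II Ser5P at chr3:137867304-137867676 and chr3:137867838-137868128, lie beyond its end and also reach Dnajb14. The start and the downstream stretch are therefore separate sites, and only the first overlaps H2az1. The cKO direction at H2az1 was the main one of these lists, 92.2% for Pol II, 98% for Pol II Ser5P and 61.5% for H3K4me3. H3f3b, an H3.3 gene, had an H3K27ac cWT region, chr11:116024045-116024566, and H2ax, the variant phosphorylated at DNA breaks, a Pol II cKO region, chr9:44335186-44335466. H3f3b and H2ax are named for their roles and lie outside the first 30 genes of the naming rule. No region was listed at H2az2, H3f3a, Macroh2a1, Macroh2a2, H1f10 or H2aj.

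Canonical H3 genes supply the protein whose lysines 4 and 27 carry the 2 marks profiled. Of 13 clustered H3 genes 8 had a region, where 40.2% of all genes did. H3c11 had polymerase alone, with a Pol II cKO region, chr13:21783090-21783363 (deposited p 0.552), inside a Pol II Ser5P cKO region, chr13:21783043-21783379 (deposited p 0.352). Of 16 H3 genes 0 had an H3K4me3 cWT region, against 3.89% of all genes, and 2 had a cKO one, against 6.16%. Of 13 H4 genes 4 had a cWT and 3 a cKO region, and of 10 H1 genes 3 and 2. These class counts are small and rest partly on regions shared with neighbours of another class. No difference between classes is read from them.

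**Figure D3:**
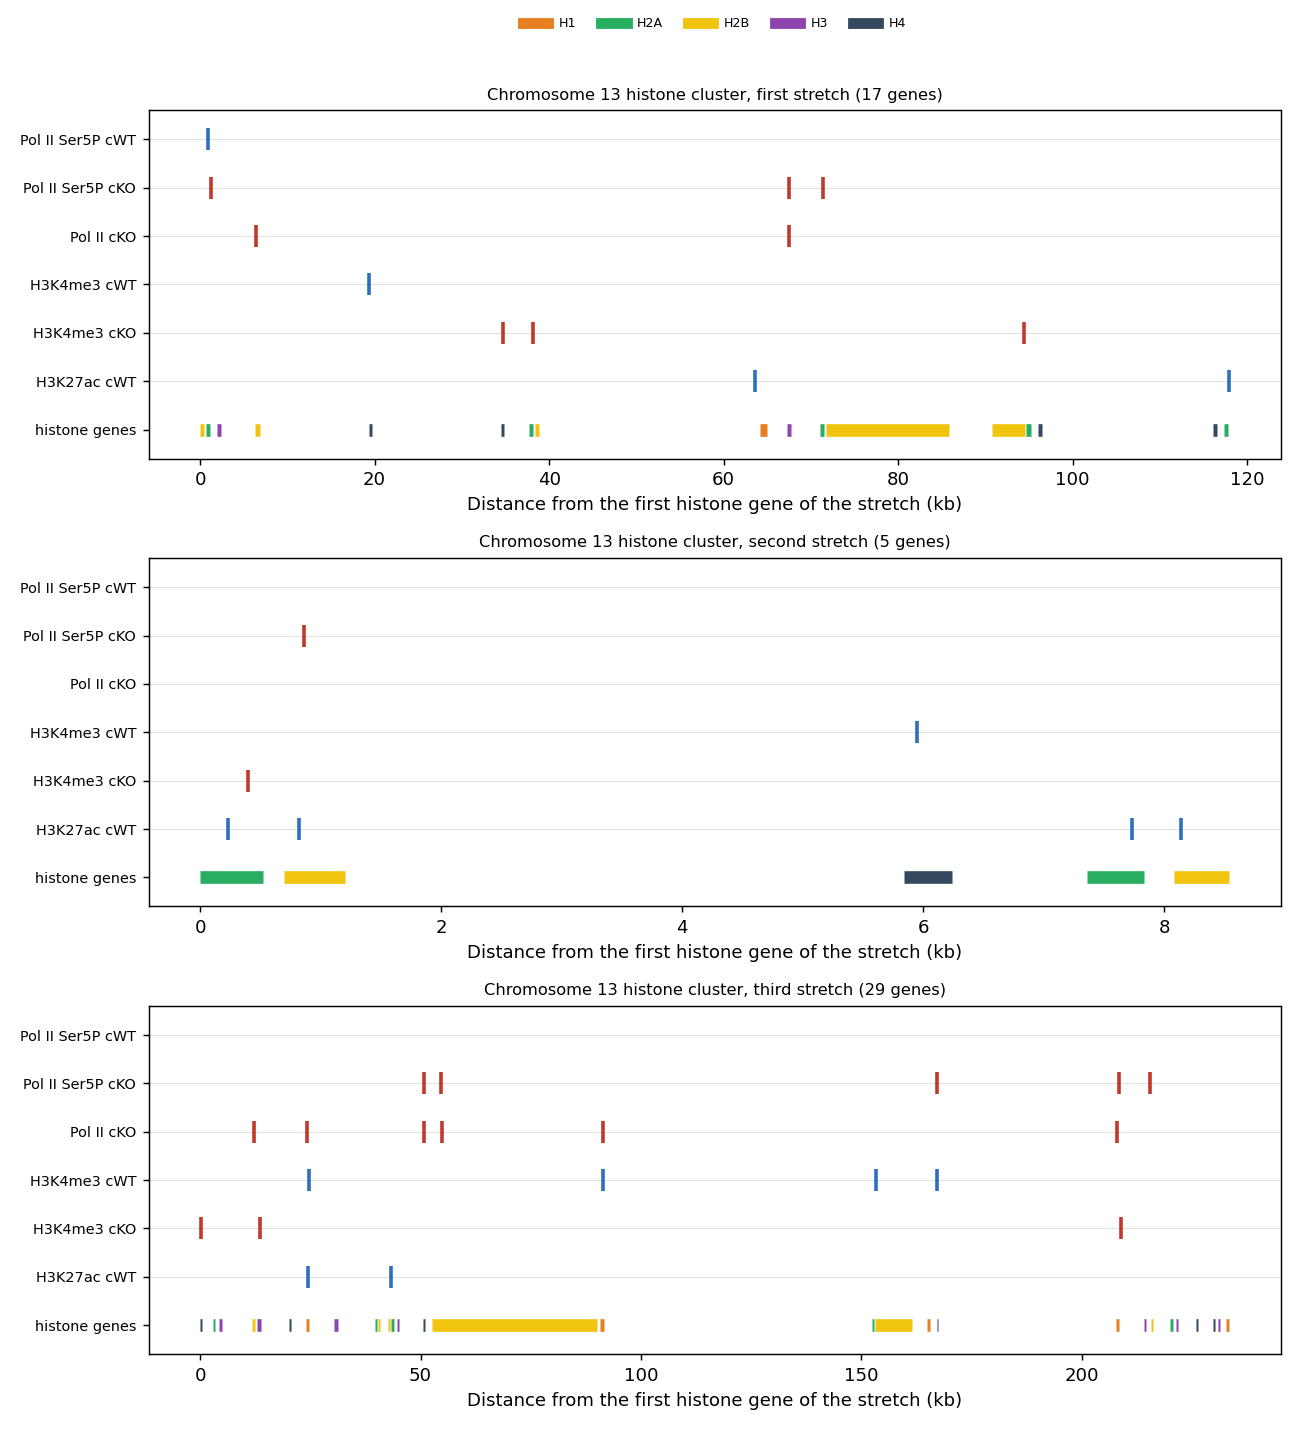
Histone genes (coloured bars, by class) and the midpoints of regions of each list (ticks, red for cKO and blue for cWT) along 3 stretches of the chromosome 13 cluster; the horizontal axis is the distance in kb from the first histone gene of the stretch. Ticks stand over or beside histone genes in all 3 stretches; the pair H2bc1 and H2ac1, which has no region, is not drawn.

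Within the chromosome 13 cluster 39 of 53 genes had a region, from 39 distinct regions, where 40.2% of all genes had one. Shared windows raise such counts. With each region given to its nearest gene alone, 38 of all 104 histone genes had any, and not 55. The interval from the first to the last histone gene, chr13:21713711-23936913, holds 104 protein-coding genes and 60 regions. Of these 39 lay in the extended spans of histone genes, 184 per Mb, and 21 in the remaining 2.01 Mb, 10.4 per Mb. The regions of the interval were thus denser at its histone genes than in the rest of it, which holds other genes too. By list the cluster had 8 H3K27ac cWT, 7 H3K4me3 cKO, 6 H3K4me3 cWT, 8 Pol II cKO, 9 Pol II Ser5P cKO and 1 Pol II Ser5P cWT regions, and 0 in the other 4 lists.

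All 10 genes of the chromosome 3 cluster had a region, where 40.2% of all genes did. They shared 8 regions in an interval of 54.31 kb (271 per Mb of their extended spans). All 8 were cKO regions, 2 of Pol II, 3 of Pol II Ser5P and 1 each of H3K27ac, H3K4me3 and Pu.1. No cWT region was listed. Of the complete lists 92.2% were cKO for Pol II, 98% for Pol II Ser5P and 95.9% for Pu.1. For H3K4me3 the share was 61.5% and for H3K27ac 10.8%. Most of the 8 thus came from lists that are nearly all cKO, and nothing particular to this cluster is read from their direction. The chromosome 11 cluster had 3 regions, all at H2aw, and 1 more lay elsewhere in its interval. By density this was 222 per Mb at its histone genes and 261 per Mb in the short rest, 0.00383 Mb. The other autosomal histone genes had 13 regions at 5 of 16 genes, 58.5 per Mb. Density was lower there than in the clusters, where the genes are shorter and closer, and the part of gene length in this was not tested.

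Along the gene, most regions lay inside it near the start. For the 43 regions nearest to a clustered gene of up to 1 kb with a known start, the midpoint was inside the gene in 34, before the start in 3 and beyond the end in 6. The median midpoint was 186 bp from the start, and 41 overlapped the gene. All 8 Pol II cKO regions had their midpoint inside the gene, at a median of 155.5 bp, and 10 of 13 Pol II Ser5P cKO regions did, at a median of 218 bp. Medians were 121 bp for H3K27ac cWT, 205 bp for H3K4me3 cKO and 233 bp for H3K4me3 cWT. Since the genes have a median length of 492.5 bp and the regions at histone genes a median width of 383 bp, a region usually covers much of the gene, and start and body cannot be separated well. The coding parts of histone genes of 1 class are nearly identical between copies. The sources used here do not say how reads that match several copies were placed, so reads of another copy may lie in a region.

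**Figure D4:**
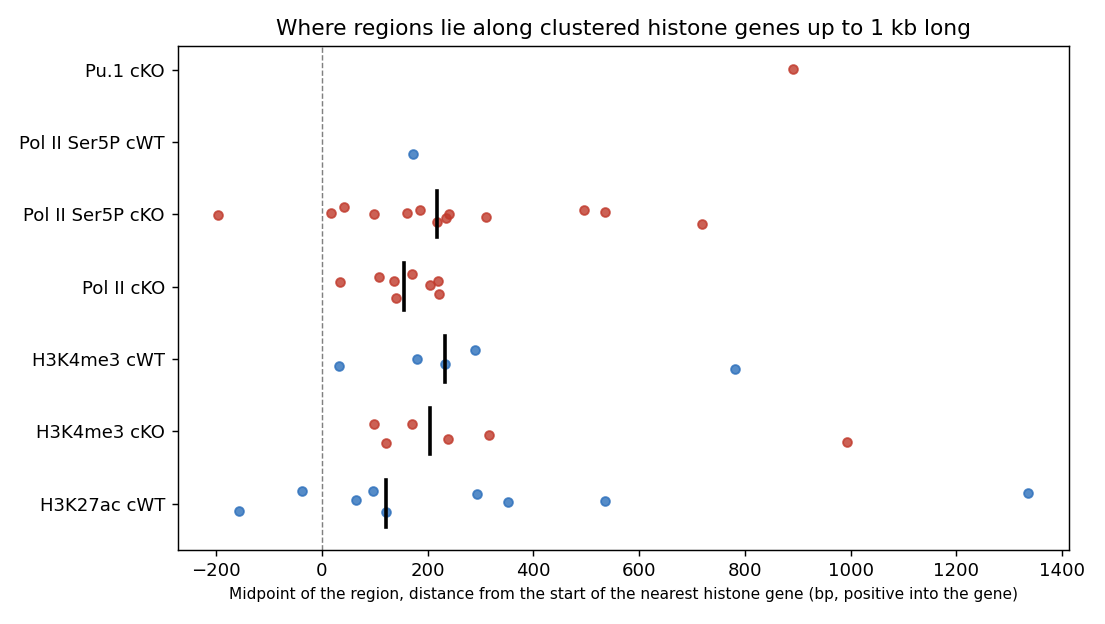
Midpoint of each of the 43 regions relative to the start of the nearest clustered histone gene up to 1 kb long (horizontal axis, bp, positive into the gene), by list; red points are cKO and blue points cWT regions, and black bars are medians of lists with more than 1 region. The 8 Pol II cKO points all lie inside the gene, while 2 Pol II Ser5P cKO regions and 1 each of H3K27ac cWT, H3K4me3 cKO, H3K4me3 cWT and Pu.1 cKO lie beyond its end.

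The deposited p-values placed polymerase regions at histone genes high in their lists. The median percentile, where 0 is the smallest p of the list, was 16.6 for the 18 Pol II Ser5P cKO regions, 15 of which lay below the median p of the list, and their median p was 0.361 against 0.724 for the list. For the 13 Pol II cKO regions it was 23.3, with 10 below it. For the 12 H3K27ac cWT regions it was 33.4, with 8 below it. H3K4me3 regions lay lower, at 60.6 for the 10 cKO and 70.7 for the 7 cWT regions, with 3 and 2 below it. Of the 63 regions 7 were named primary, and 5 of those were Pol II Ser5P cKO regions. Histone genes thus had Pol II Ser5P regions in a usual share of genes but early in the order of p. H3K4me3 regions lay in a raised share of genes but late in that order. The order is that of whole lists, which also hold regions away from genes. It was not computed for regions at other genes, so it is not shown to be particular to histone genes.

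**Figure D5:**
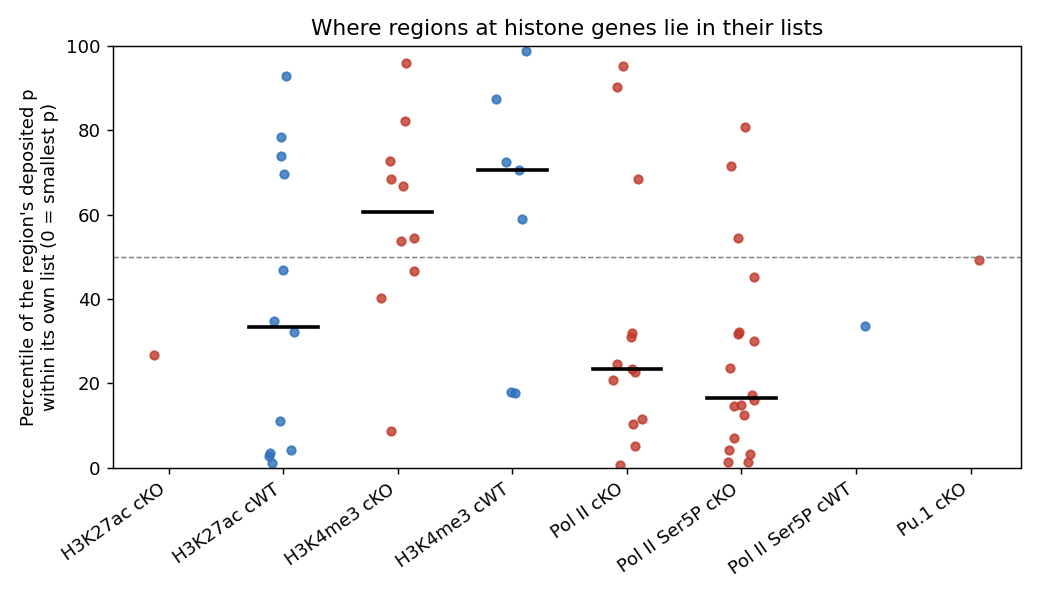
Percentile of each region's deposited p within its own list (vertical axis, 0 is the smallest p) for the regions at histone genes, by list; red points are cKO and blue points cWT regions, black bars are medians, and the dashed line marks the middle of a list. Median bars lie at 16.6 for Pol II Ser5P cKO and 23.3 for Pol II cKO, and above the line for both H3K4me3 lists.

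Genes that act on histones were counted in the same way. Of 35 genes for histone transcription, histone message processing and histone chaperones 25 had a region, where 40.2% of all genes did. Pol II Ser5P cKO regions lay at 14 (21.1% of all genes), Pol II cKO at 11 (16.4%), H3K27ac cWT at 7 (18.3%), H3K4me3 cKO at 5 (6.16%) and H3K4me3 cWT at 3 (3.89%), with 1 each in the H3K27ac cKO, Pol II Ser5P cWT and Pu.1 cKO lists. These genes are longer than the histone genes, so the counts are not set against each other. Cpsf3, the nuclease that cuts histone messages, had 4 regions in 3 lists. Daxx, a chaperone of H3.3, had Pol II cKO, Pol II Ser5P cKO and H3K27ac cWT regions. Zfp473, a factor of histone message processing, had H3K4me3 regions of both genotypes and a Pol II Ser5P cKO region. Cabin1, a partner of the HIRA chaperone, had 5 regions in 2 lists. Npat, the coactivator of replication-dependent histone genes, was chosen after its values were seen and had a Pol II Ser5P cWT region, chr9:53536730-53537211, and a Pol II cKO region, chr9:53537224-53537395.

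Of 30 genes of DNA replication and proliferation 20 had a region, where 40.2% of all genes did. Pol II Ser5P cKO regions lay at 9 (21.1% of all genes), Pol II cKO at 7 (16.4%), H3K27ac cWT at 6 (18.3%), H3K4me3 cWT at 5 (3.89%) and H3K4me3 cKO at 2 (6.16%), with 0 genes in the other 5 lists. Ccne1, a cyclin of the entry into S phase, had Pol II cKO, Pol II Ser5P cKO and H3K4me3 cWT regions at or beyond 1 end of its span. Ccne2, Cdc45, Cdk1 and Cdt1 had regions in 2 lists each. Polymerase was thus listed for cKO and for no cWT gene in this group, the direction of the lists as a whole. Its part in the histone gene counts was not tested.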

How the data were processed

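CUT&Tag was run on sorted microglia in 30 samples (2 genotypes, 5 antibodies, 3 replicates). The deposited data analysed here are 10 region lists, 1 per antibody and genotype. The submitters' processing notes name HOMER 4.11, MACS2 2.2.7.1, Bowtie2 2.4.4 and bedtools 2.30.0, and the builds GRCm38 and mm10. The role of each tool, the way replicates were joined and the rule that made a region specific to a genotype are not given in the sources consulted. Each deposited line gives a position, a name (primary or secondary), a signal, a score from 1 to 1000, and a p-value before and after adjustment. The deposited signal is the authors' value on an unstated scale and was only described. The deposited score is the p-value on another scale, so it was not used. The deposited p-value was used to rank regions within a list.

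Positions were made 1-based. Genes came from a RefSeq table of GRCm38.p6, without exons or UTRs, and starts, strands and sequences from a RefSeq promoter table. It had no entry for H2ax, H2bc21, H2bc4, H3c1, H3c7 and H4c14. Histone clusters were genes within 3 Mb of each other on chromosomes 13, 3 and 11. An overlap of at least 1 bp with a span extended by 2 kb counted, and 500 bp was the largest gap of a head-to-head pair. The fixed list of histone-handling genes matched except for Cpsf3l. With single lists per group no test between genotypes was possible. The histone genes, gene lists and measures were chosen with earlier results of these data known. Genes named are the first 30 by number of lists, then of regions, then by symbol, and up to 5 per other list, and exceptions are stated. The counting was tested on simulated regions. Python 3.11.15, numpy 2.4.6, pandas 2.3.3 and matplotlib 3.10.9 were used.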

Additional observations from a re-analysis of the deposited data

How the results depend on the processing

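The number of histone genes with a region was recounted under other settings. Requiring the midpoint, or at least 50%, of the region inside the extended span, or counting autosomal genes only (added after seeing the data), kept all 10 counts within 1.5 times. With the gene span alone the H3K27ac cKO and Pu.1 cKO counts were 0 and the Pol II Ser5P cWT count 1, and 41 genes had any region. With 5 kb added the H3K27ac cKO count was 2, and 63 genes had any. Counting only the nearest gene gave 10 for H3K4me3 cKO, 7 for H3K4me3 cWT, 15 for Pol II Ser5P cKO, 1 for Pol II Ser5P cWT and 1 for Pu.1 cKO, and 38 genes in all, since regions are then not shared. Among regions below their list's median deposited p the counts were 4 for H3K4me3 cKO and 3 for H3K4me3 cWT, and 42 in all. Without regions under 300 bp they were 6 for H3K4me3 cWT and 0 for Pu.1 cKO, and 50 in all. With a deposited p under 0.05 the count was 0 in all 8 lists that had any histone gene. Merging regions of a list within 1 kb kept every count of regions within 1.5 times. Leaving out replicates in turn was not possible, as the lists combine them. No paired analysis was possible because the lists hold no value per replicate. Read depth is unknown, so a gene without a region is not shown to be unchanged.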
